A study of Mus musculus with 2 samples.

Results

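Genes of the extracellular matrix, its cell surface receptors and the proteases that cut it were compared between the ES sample, mouse ES cells labelled day 0, and the EB sample, mouse EB cells labelled day 4. Neither abbreviation is explained in the labels. In stem cell work ES usually means embryonic stem, and EB embryoid body, a floating clump of differentiating stem cells. The labels name no strain, line, medium or treatment. Each sample was 1 array of a bead chip, on which a probe's signal intensity is the mean over beads that carry the same oligonucleotide. With 1 array per group no test, p-value or standard deviation could be given, and the group cannot be told apart from the culture or the place of the array on its chip. The genes were chosen by symbol alone: collagens, laminins, fibulins, fibrillins, thrombospondins, glypicans, syndecans, integrins, lysyl oxidases and other collagen modifying enzymes, ADAM, ADAMTS and MMP proteases and TIMP inhibitors, with a few single genes such as Hspg2, Vcan and Dcn. The rule found 97 genes among 8102 that could be named from the probe identifiers. Integrin Itga2b was left out by the rule.

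The matrix is the protein network outside cells. Basement membranes are its thin sheets under epithelia, built from laminins, network-forming collagen, nidogen and the heparan sulfate proteoglycans perlecan and agrin. Integrins are pairs of an alpha and a beta chain that bind these proteins and link them to the cytoskeleton. Cultured ES cells attach through laminin-binding integrins, and early aggregates lay down basement membrane between their outer endoderm and the cells inside.

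The 97 genes were represented by 113 probes, 81 genes by 1 probe and 16 by 2, and the probe with the highest mean log2 signal stood for the gene. A gene was called measured if its signal reached 230.0 units in at least 1 array. This signal floor is the quantile normalized signal at which the deposited EB detection score passes 0.99. By this condition 38 of the 97 genes (39.2%) were measured, against 3867 of all 8102 named genes (47.7%), and 22 of the 38 were above the floor in both arrays. The other 59 had signals from 119 to 221 units and log2 differences, always EB minus ES, between -0.54 and 0.65. Background signals here means signals under the floor in both arrays, and not transcripts shown to be absent. Some of these genes had an EB detection score near the limit, such as Col24a1 with 0.97. Several central genes of the field, among them Fn1, Sparc, Lama1, Lamc1, Col4a1, Nid1 and Itgb1, had no probe that could be named by this rule and are not analysed here.

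Of the 38 measured genes, 5 were at least 2-fold higher in EB and 10 at least 2-fold lower, a log2 difference of 1 or more. The same rule called 3.72% of all named measured genes higher and 5.35% lower, while the 5 and 10 genes are 13.2% and 26.3% of the 38. A gene measured only through its brighter array had to differ, so these shares are a description and the 59 unmeasured genes have no call. Among the genes above the floor in both arrays 3 of 22 (13.6%) were higher and 6 of 22 (27.3%) lower, against 3.11% and 4.04% of 3313 named genes. The median log2 difference of the 38 was -0.01, with 19 positive and 19 negative values and quartiles of -1.05 and 0.47. For all named measured genes the median was 0.06 and the quartiles were -0.26 and 0.35, so the matrix genes had a similar middle and wider quartiles. Genes measured through 1 array alone can widen the quartiles. Above the floor in both arrays were 22 of the 38, against 3313 of the 3867 named measured genes. The part of this condition in the width was not tested. With the series value table in place of the sample files 13 were higher and 14 lower, against 13.6% and 12.1% of all named measured genes by that table. Over these genes the share of calls that were higher moved from 41.0% to 53.0%.

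**Figure D1:**
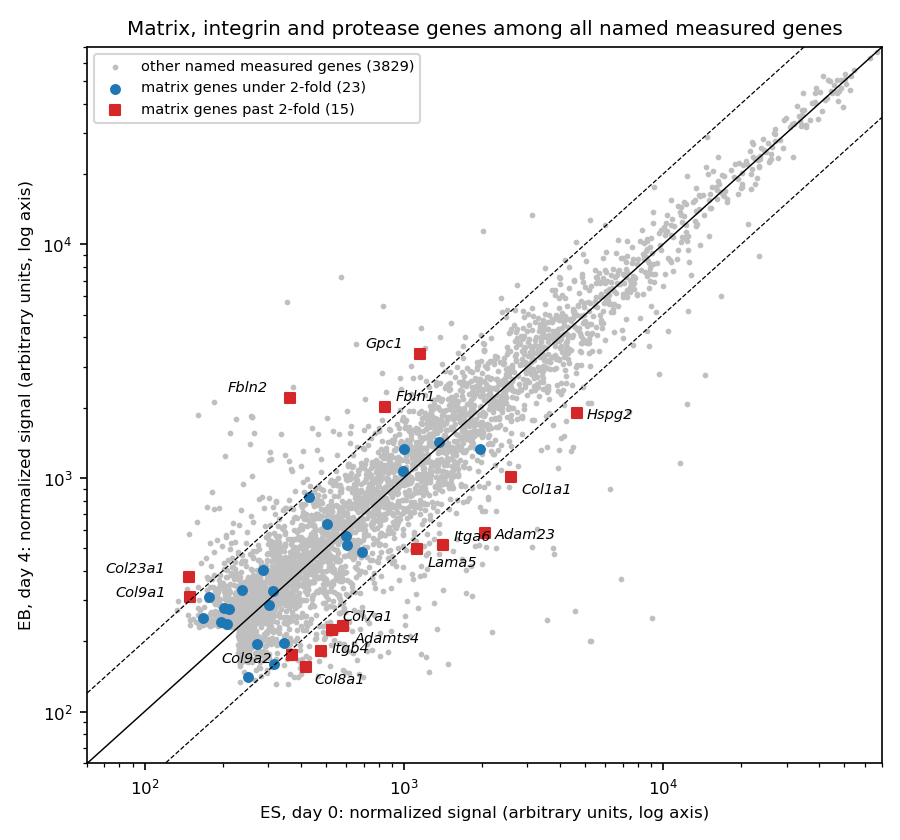
Normalized signal of each named measured gene in EB at day 4 (vertical, log axis) against ES at day 0 (horizontal, log axis), 1 array each; the solid line marks equal signals and the dashed lines 2-fold. The 15 matrix genes past 2-fold (red squares) are named: 5 lie above the upper and 10 below the lower line, and 23 (blue) lie between.

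The promoters of 4 of the 15 genes are shown: Hspg2 and Lama5, which encode basement membrane proteins and were both lower in EB, Adam23, the gene with the most negative difference, and Fbln2, the gene with the most positive. Each sequence is the 250 bases before the RefSeq start (GRCm38.p6), 5′ to 3′ on the strand of the gene, and capitals mark the GC box GGGCGG or its reverse complement.
Hspg2, chr4:137468553-137468802, plus strand: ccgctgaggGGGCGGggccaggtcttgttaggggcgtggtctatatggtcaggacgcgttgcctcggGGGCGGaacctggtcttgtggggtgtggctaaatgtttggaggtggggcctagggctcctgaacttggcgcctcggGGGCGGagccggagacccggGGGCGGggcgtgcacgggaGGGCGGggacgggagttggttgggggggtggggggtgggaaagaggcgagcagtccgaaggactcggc
Lama5, chr2:180225860-180226109, minus strand: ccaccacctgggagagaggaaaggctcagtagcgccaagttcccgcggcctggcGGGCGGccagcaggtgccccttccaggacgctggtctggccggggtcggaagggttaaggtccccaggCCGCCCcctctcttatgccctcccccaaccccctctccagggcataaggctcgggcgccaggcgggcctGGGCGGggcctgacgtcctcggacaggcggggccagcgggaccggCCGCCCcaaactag
Adam23, chr1:63445641-63445890, plus strand: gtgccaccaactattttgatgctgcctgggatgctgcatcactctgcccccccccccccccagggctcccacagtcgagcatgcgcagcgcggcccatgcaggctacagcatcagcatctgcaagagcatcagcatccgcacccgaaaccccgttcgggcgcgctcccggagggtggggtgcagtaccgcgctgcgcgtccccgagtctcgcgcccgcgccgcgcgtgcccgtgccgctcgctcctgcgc
Fbln2, chr6:91212514-91212763, plus strand: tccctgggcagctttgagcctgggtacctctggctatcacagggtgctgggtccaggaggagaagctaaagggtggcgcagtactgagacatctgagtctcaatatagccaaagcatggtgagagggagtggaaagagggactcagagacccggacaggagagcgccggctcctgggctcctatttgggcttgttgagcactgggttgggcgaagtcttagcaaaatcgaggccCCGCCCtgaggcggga
Hspg2 had 5 GC boxes in this window, Lama5 4, Fbln2 1 and Adam23 0, although the Adam23 window was 70.4% G and C and that of Hspg2 70%. Of the 15 genes past 2-fold 10 had a promoter entry, with 12 windows, and 8 of the 12 (66.7%) held a GC box on either strand; the windows of Fbln1 overlap each other. The same held for 32.7% of all 32851 windows, which had a median of 52.4% G and C against 60.6% for the 12. The windows of the measured matrix genes, which include the 12, were close to them: 18 of 28 (64.3%) held a GC box, with a median of 62.2% G and C. The CACCC element was present in 9 of the 12 (75%) and in 52.0% of all windows, and TATAAA in 0 of the 12 and in 12.4%. Of the 28 windows 21 (75%) held CACCC and 0 TATAAA. Of the 69 windows of all chosen genes, measured or not, 36 (52.2%) held a GC box, 51 (73.9%) CACCC and 9 (13.0%) TATAAA. The motifs were searched on both strands and can share bases where a CACCC follows a GC box. The match is one of letters and says nothing of binding. The set of all windows includes genes not measured here, and the shares over all named measured genes were not computed.

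Of the laminin, network collagen and perlecan genes of basement membranes, Hspg2 and Lama5 differed by 2-fold, both lower in EB. Hspg2, which encodes perlecan, had 4643 units in ES against 1894.5 in EB, which is 2.45-fold lower (log2 difference of -1.29). The standard error of this difference was 0.07. It comes from the spread between beads within an array and holds no biological variation. Lama5, a laminin alpha chain widespread in epithelial basement membranes, went from 1122 to 499 units, 2.25-fold lower (log2 difference of -1.17, error 0.08). Lamb2 gave 601 units in ES and 519 in EB, and Lamb1 209 and 236. Col4a5, a chain of basement membrane collagen, gave 301 and 285 units, with a bead-level 95% interval of the log2 difference from -0.29 to 0.13. In all 6 of the 11 genes grouped here as basement membrane were measured, with a median log2 difference of -0.60. Of the 6, 2 were lower and 0 higher, against 5.35% and 3.72% of all named measured genes, and 4 were above the floor in both arrays. The basement membrane glycoprotein Fbln2 was grouped with the glycoproteins by its symbol and was 6.04-fold higher. Col4a3, Col4a4, Col4a6, Col15a1 and Lamc3 were under the floor in both arrays.

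Among the receptors, both chains of a laminin-binding pair passed the rule. Itga6 and Itgb4 encode the alpha and the beta chain of an integrin that anchors epithelial cells to laminin. Itga6, which also pairs with another beta chain, had 1421 units in ES and 516 in EB, 2.75-fold lower (log2 difference of -1.46, error 0.10). Itgb4 had 478 units in ES and 181.5 in EB, under the floor, so it was at least 2.08-fold lower (log2 difference of -1.40, error 0.10). Itgb5, a beta chain of a vitronectin receptor, lay on the other side, with 432 units in ES and 832 in EB. Its log2 difference of 0.95, with a bead-level interval from 0.73 to 1.16, was just outside the rule, and it passed after normexp background correction (1.06). Itga11, a collagen-binding alpha chain, had 345 units in ES and 197 in EB by its brighter probe and background signals by the other. Itgb4 and Itga11 were measured through ES alone, so their direction was set by that condition. The other alpha chains, Itga1, Itga4, Itgal, Itgam and Itgav, and the beta chain Itgb2l were under the floor in both arrays, as were Itgb1bp1 and Itgbl1, which carry the name but are no receptor chains. Of 10 integrin chains 4 were thus measured, 2 lower and 0 higher, against 5.35% and 3.72% of all named measured genes. Only Itga6 and Itgb5 were above the floor in both arrays.

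**Figure D2:**
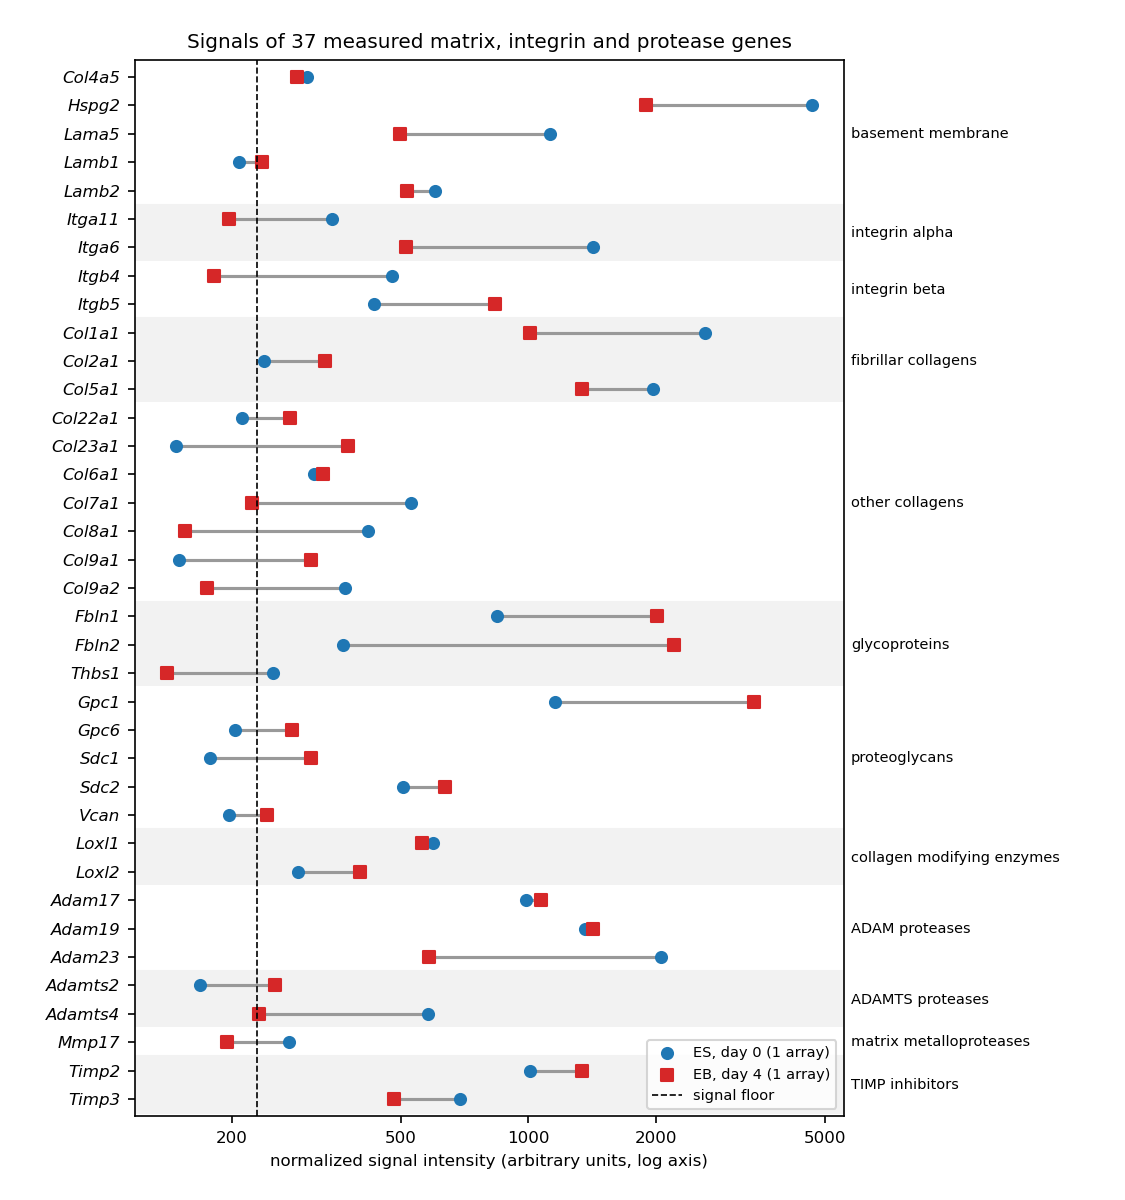
Normalized signals (horizontal, log axis) of 37 of the 38 measured genes in ES (blue circles) and EB (red squares), 1 array each, ordered by role; the dashed line is the signal floor of 230.0 units. Hspg2, Lama5, Itga6 and Itgb4 have the blue point to the right, Fbln1, Fbln2 and Gpc1 the red one.

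Fibrillar collagens were measured for 3 of 9 genes. Col1a1, the major chain of bone and skin collagen, had 2602 units in ES and 1007 in EB, 2.58-fold lower (log2 difference of -1.37, error 0.09). Col1a2, which encodes the partner chain of Col1a1, gave 179.9 and 169 units and was under the floor in both arrays, as was Col3a1 with 152 and 146. Col5a2, Col11a1, Col24a1 and Col27a1 were under it too. Col5a1, which helps to set the width of collagen fibrils, had 1969 units in ES against 1335 in EB (log2 difference of -0.56). Col2a1, the collagen of cartilage and notochord, had 238 and 333 units by 1 probe and 230.0 and 291 by the other, with log2 differences of 0.48 and 0.34. Besides Col1a1, the fibroblast markers were considered, since fibroblasts make this collagen. Of 11 listed fibroblast markers 3 were named on the array, and their summed signal was 790.2 units in ES and 533 in EB. Prrx1 and S100a4 were under the floor in both arrays, while Acta2 had 419 units in ES and 242 in EB. Of the matrix genes that fibroblasts are known for, Dcn and Postn were under the floor in both. The part of fibroblasts in the Col1a1 difference was not tested.

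The other collagens past the rule had dim signals on 1 side. Of 13 genes 7 were measured, 2 were higher and 3 lower, against 3.72% and 5.35% of all named measured genes. Only 1 of the 7, Col6a1, was above the floor in both arrays. The genes past the rule were all measured through 1 array alone, so their direction was set by that condition. Col7a1, which forms the anchoring fibrils under epithelia, had 529 units in ES and 224 in EB, at least 2.30-fold lower (log2 difference of -1.24, error 0.10), while its second probe gave background signals of 180.2 and 149.95. Col8a1, a short chain of sheet-like networks, had 418 and 155 units, at least 1.82-fold lower. The next 2 genes belong to 1 molecule, as Col9a1 and Col9a2 encode chains of a collagen on the surface of cartilage fibrils. Col9a2 had 369.8 units in ES and 175 in EB, at least 1.61-fold lower, whereas Col9a1 had 150.2 and 308, at least 1.34-fold higher. Their log2 differences were -1.08 and 1.04, the smallest among the genes past the rule, and the bead-level interval of each reached inside it. Col23a1, a transmembrane collagen, had 148 units in ES and 376 in EB, at least 1.63-fold higher (log2 difference of 1.34, error 0.13). With both signals raised to the floor Col8a1, Col9a1, Col9a2 and Col23a1 no longer passed, with log2 differences of -0.86, 0.42, -0.69 and 0.71. Col6a1 (312 and 328 units) and Col22a1 (211.5 and 275) did not pass, and Col6a3, Col6a4, Col8a2, Col13a1, Col19a1 and Col25a1 were under the floor in both arrays.

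Fibulins and a glypican stood on the higher side. Fbln2, a calcium-binding glycoprotein of basement membranes and elastic fibres, had 365 units in ES and 2205 in EB, 6.04-fold higher (log2 difference of 2.59, error 0.07). Its paralogue Fbln1 had 845 units in ES and 2006 in EB, 2.37-fold higher (log2 difference of 1.25, error 0.07). The second probe of Fbln1 gave only 239.9 and 274.5 units, a log2 difference of 0.19, so the mean over both probes, 0.72, did not pass. For scale, the log2 differences of 2 measured probes of 1 gene differed with a standard deviation of 0.40 over 391 named genes. Gpc1, a heparan sulfate proteoglycan held in the membrane by a lipid anchor, had 1153 units in ES and 3399.6 in EB, 2.95-fold higher (log2 difference of 1.56, error 0.05).

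Of the glypicans, syndecans, Vcan and Dcn 5 of 7 genes were measured and only Gpc1 passed the rule. Sdc1, a transmembrane syndecan, had 178 units in ES and 308 in EB by its brighter probe (log2 difference of 0.80), and Sdc2 505 and 638 (0.34). Gpc6 had 203 and 277 units, and Vcan, a large chondroitin sulfate proteoglycan, 197.5 and 243. Gpc6, Sdc1 and Vcan had an ES signal under the floor and were measured through EB alone, so their direction was set by that condition. Thbs1, an adhesive glycoprotein also released by platelets, had 250.5 units in ES and 141 in EB, at least 1.09-fold lower. It was measured through ES alone, so its direction was set in the same way. Thbs2, Mgp, which encodes a mineralization inhibitor, and Gpc5 were under the floor in both arrays.

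**Figure D3:**
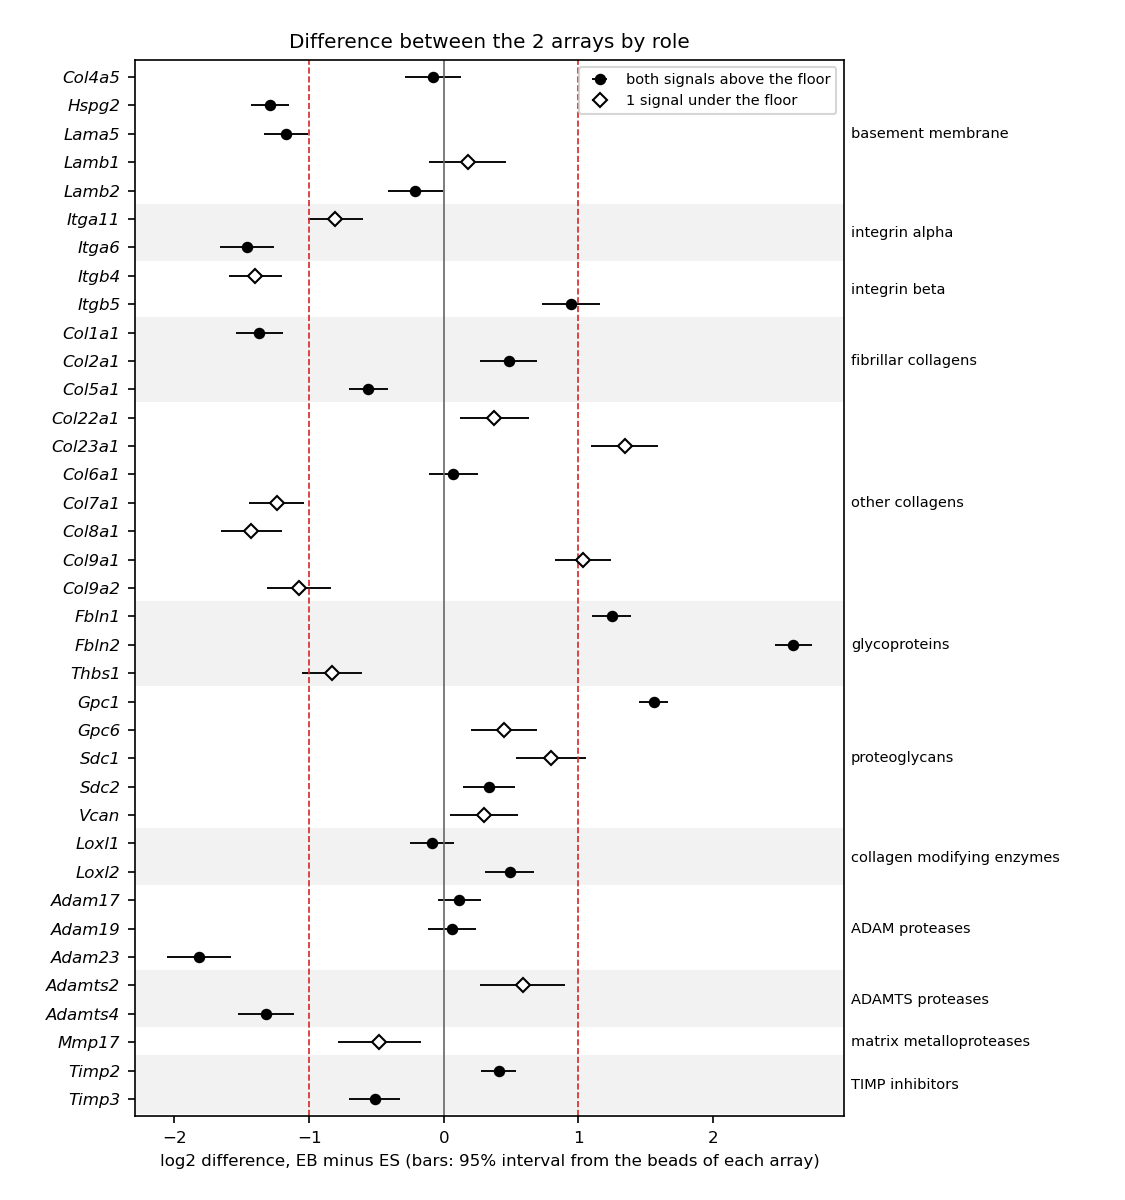
Log2 difference, EB minus ES, of 37 of the 38 measured genes ordered by role, with the 95% interval from the beads of each array; open diamonds have 1 signal under the floor and the red dashed lines mark 2-fold. Fbln2 is farthest to the right at 2.59 and Adam23 farthest to the left at -1.82.

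Most proteases gave background signals. Of 17 ADAM genes 3 were measured. Adam23, a surface protein without protease activity that binds integrins, had 2054 units in ES and 583 in EB, 3.52-fold lower (log2 difference of -1.82, error 0.12). The active sheddases Adam17 and Adam19 gave similar signals in both arrays, with 989 and 1072 units for Adam17 and 1362 and 1421 for Adam19, and bead-level intervals that held 0. The unmeasured ones were Adam10, Adam11, Adam12, Adam22, Adam25, Adam26a, Adam28, Adam30, Adam34, Adam4, Adam5, Adam6a, Adam6b and Adam7, of which Adam4, Adam5, Adam7 and Adam25 are known from testis or epididymis. Of 10 ADAMTS genes 2 were measured. Adamts4, which cleaves aggrecan and versican, had 580.4 units in ES and 233 in EB, just over the floor, 2.50-fold lower (log2 difference of -1.32, error 0.11). Adamts2, which trims procollagen, had 168 units in ES and 252 in EB. Those under the floor in both arrays were Adamts1, Adamts10, Adamts12, Adamts16, Adamts18, Adamts5, Adamts8 and Adamtsl5. Of 7 MMP genes only Mmp17, a membrane-anchored protease, was measured, with 272 units in ES and 195 in EB, while Mmp12, Mmp16, Mmp19, Mmp1a, Mmp24 and Mmp28 were not. The inhibitors Timp2 (1006 and 1334 units) and Timp3 (690.1 and 483.5) had log2 differences of 0.41 and -0.51. The second probes of Sdc1, Vcan and Timp3 were under the floor in both arrays. The crosslinking enzymes Loxl1 (597 and 562) and Loxl2 (287 and 402) did not pass either, and the collagen hydroxylase gene P4ha3 was under the floor.

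Near the threshold on the higher side, Col9a1 (1.04), Fbln1 (1.25) and Col23a1 (1.34) lay inside and Itgb5 (0.95), Sdc1 (0.80) and Adamts2 (0.59) outside. On the lower side Col9a2 (-1.08), Lama5 (-1.17) and Col7a1 (-1.24) lay inside and Thbs1 (-0.83) and Itga11 (-0.81) outside. After normexp background correction Sdc1 (1.09), Thbs1 (-1.25) and Itga11 (-1.06) passed as well. Bead-level standard errors of the 38 genes ran from 0.05 to 0.16, and 13 of the 15 genes past the rule had an interval that lay wholly past 2-fold. The interval held 0 for 6 of the 38.

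A list of 111 other genes of matrix assembly and adhesion was read beside them. Of these 41 were named on the array and 24 measured, 2 higher and 3 lower, against 3.72% and 5.35% of all named measured genes. Among genes of collagen folding and processing, Pcolce, which enhances removal of the procollagen tail, had 1228 units in ES and 406 in EB, 3.03-fold lower (log2 difference of -1.60). Bmp1, the protease that removes that tail, had 1085 and 546 units (-0.99), and the collagen chaperone Serpinh1 5671 and 7520.3 (0.41). P3h2, a collagen prolyl hydroxylase, had 216 units in ES and 527 in EB, at least 2.29-fold higher. Of other matrix proteins Agrn, the basement membrane proteoglycan agrin, had 7652 units in ES and 3716 in EB, 2.06-fold lower (log2 difference of -1.04). Without quantile normalization the difference of Agrn was -0.98 and no longer passed. Reln, a secreted glycoprotein of neuronal migration, had 194 and 742 units, at least 3.23-fold higher. Behind the integrins, Tns3, a tensin that links integrin tails to actin, had 1135 units in ES and 278 in EB, 4.08-fold lower (log2 difference of -2.03, and -1.24 as the mean over its probes), while the focal adhesion protein gene Zyx had 5258 and 6628 (0.33). The laminin receptor gene Dag1 had 1541 and 1128 units (-0.45), the hyaluronidases Hyal2 2872 and 4366 (0.60) and Hyal1 443 and 310 (-0.51). Among further proteases and inhibitors Ctsb, a lysosomal protease, had 3813 and 2914 units (-0.39) and Reck, a membrane inhibitor of MMPs, 261 and 460.1 (0.82).

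Marker genes of the cell types in such cultures moved between the arrays as well. In bulk RNA fewer cells of a type and less RNA per cell cannot be told apart. Of 9 named pluripotency markers 7 were lower in EB and 0 higher, with a summed signal of 39654 units in ES and 4576 in EB. The largest parts of the ES sum were Nanog (14530 units) and Klf2 (9100). Of the 9, 5 were under the floor in EB, among them Sox2, Zfp42, Dppa3 and Klf4. Their direction was set by the condition for measured genes. Of 10 listed mesoderm markers 4 were named, Eomes, Lhx1, Fst and Lmo2, and all 4 were higher (917 and 6513 units in sum). Lhx1 and Lmo2 were under the floor in ES, so their direction was set by the condition for measured genes. The rule called 3.72% of all named measured genes higher and 5.35% lower. The marker lists were drawn up with earlier results of these data known, so these counts are no independent evidence of cell types. Of 5 endoderm markers, of interest because primitive endoderm makes much basement membrane, Gata4 was higher (173 and 452 units) and Trf lower (322 and 131). Against the floor these were at least 1.97-fold and at least 1.40-fold, short of 2-fold. Each was measured through 1 array alone, so its direction was set in the same way. The endoderm markers had a sum of 2617 units in ES and 3211 in EB. Of 3 neural markers Cdh2 was higher (236 and 730 units), Nes gave 415 and 416 units, and Pax6 was under the floor in both arrays. Their sum was 786 units in ES and 1276.5 in EB, a rise that lay in Cdh2. The part of these cell types in the matrix gene differences was not tested.

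**Figure D4:**
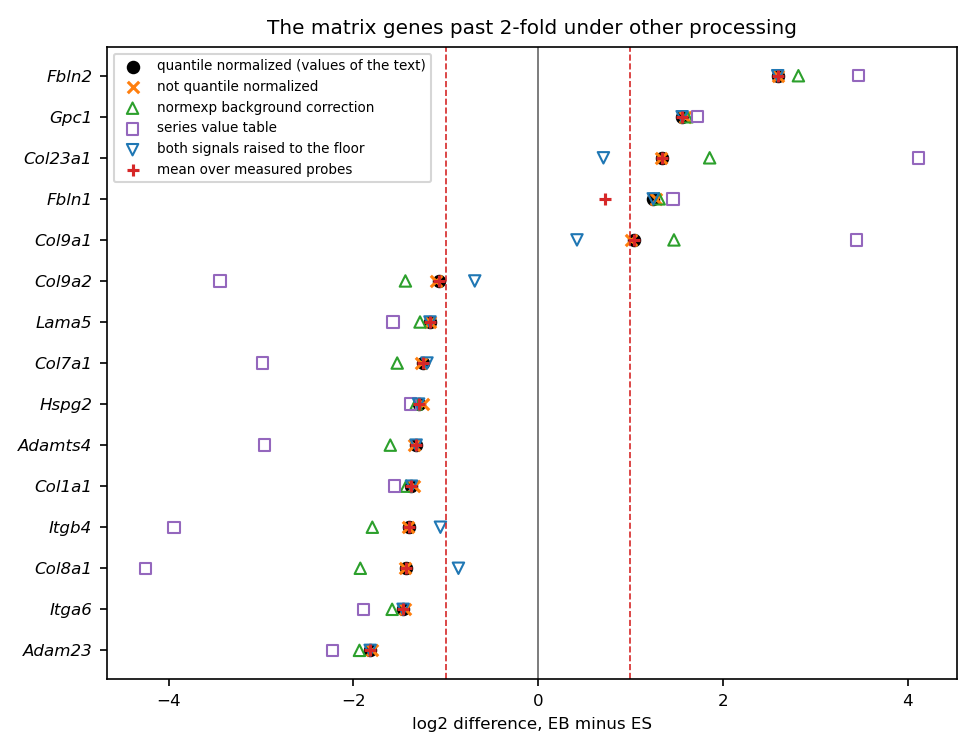
Log2 difference, EB minus ES, of the 15 genes past 2-fold under 6 ways of processing; the red dashed lines mark 2-fold. Every symbol of a gene lies on the same side of 0, although raising both signals to the floor could not have moved one across. The purple squares of the series value table lie farthest out for dim genes such as Col8a1 and Col23a1.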

How the data were processed

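Total RNA of 1 ES and 1 EB sample was labelled with biotin and hybridised to 1 bead array each, per the labels' protocols. The deposited signal intensity of a probe is its bead mean, exported without normalization from BeadStudio 2.3.41, per the file headers. The sample titles call the data normalised instead, and the headers were followed here. The submitters' processing notes also name RMA and limma, with no role. The deposited detection score was present for EB and not for ES. The deposited bead spread fell with bead number with a log slope of -0.44 in ES and -0.47 in EB, near the -0.5 of a standard error, and was used as one. Each array has 46643 probes with a median of 38 and 37 beads. The series table holds linear intensity values deposited by the authors. The titles' word normalised may refer to it, but no label or header gives a method.

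The 2 arrays were quantile normalized together and log2 transformed (Python 3.11.15, numpy 2.4.6), without background subtraction, and the calling functions were tested on simulated data. Normexp used limma 3.58.1 with an offset of 50. Zero-padded numbers of at least 10000 in the probe identifiers were taken for NCBI Gene IDs and named from a RefSeq table (GRCm38.p6), which held 9796 of 11857 (82.6%). No label or header names a genome build for the array. Signals of different probes are not compared as levels. Where the dimmer signal lay under the floor, the fold was taken against the floor and written as "at least", so it can be under 2 for a gene that passed on its measured signals. The rule for named genes allowed any measured gene of the chosen families, with both signals for those past 2-fold and for every integrin chain. The genes and lists were chosen with earlier results of these data known. The values of 1 measured gene are not reported here, although it is counted.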

Additional observations from a re-analysis of the deposited data

How the results depend on the processing

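No paired analysis was possible because there is 1 array per group, and none could be left out. Percentages in brackets are the shares of all named genes that the same setting called, and not shares of the matrix genes. In the main setting 5 matrix genes were higher and 10 lower (3.72% and 5.35%). They were 13 and 14 with the series value table (13.6% and 12.1%). With a signal above the floor in both arrays they were 3 and 6 (3.11% and 4.04%). Raising both signals to the floor gave 3 and 8 (3.26% and 4.65%), and a 1.5-fold rule 8 and 13 (12.4% and 12%). All 15 genes kept their direction in the 5 other ways of computing the values. Raising both signals to the floor could not have reversed a direction. The mean over measured probes changed the value of Fbln1 alone among the 15. The other planned settings left the 2 counts within 1.5 times. The median of the measured genes stayed between -0.09 and 0.00 in the settings that gave one, with -0.003 for no filter on dim probes. Of the 111 listed genes, 17 passed in either direction with the series table (25.7% of all named measured genes), 3 above the floor in both arrays (7.15%) and 13 with a 1.5-fold rule (24.4%), in place of 5 (9.08%). Of the 38 log2 differences 28 moved beyond their bead-level interval with the series table, 12 with normexp, 10 when raised to the floor, 1 with the mean over probes (Fbln1) and 0 without quantile normalization. Signal over background limits the 16 genes with 1 signal under the floor, and the number of arrays limits the precision of all.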
